A study of Mus musculus with 10 samples.

Results

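The 10 genes followed here are known as marker genes of basophils and mast cells and were measured in RNA sequencing libraries of bone marrow hematopoietic progenitor cells. They are Cpa3, Mcpt8, Fcer1a, Ms4a2, Hdc, Prss34, Gzmb, Cd200r3, Il4 and Srgn. These 10 of the 38887 genes listed in the table were chosen by name and found through their Ensembl identifiers. There were 5 libraries from mice given the casein kinase 2 inhibitor BMS-595 at 60 mg/kg for 2 weeks, called CK2i, and 5 from mice given vehicle for the same time. All mice of both groups bore Lewis lung carcinoma tumours, a transplantable lung cancer line, so that no group stands for tumour-free marrow. The labels describe the cells as progenitors isolated from the marrow and give neither the isolation step nor whether a library came from 1 mouse or several. P-values therefore measure the spread between these libraries, which may in part be technical. The 12 progenitor markers checked, among them Kit, Cd34, Flt3 and Myb, passed the filter on low counts, and Kit averaged 225 ± 19.2 CPM in CK2i and 269 ± 16.0 CPM in vehicle libraries (counts scaled by library size with edgeR's TMM method; SD, n = 5 each).

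Basophils and mast cells are granulocytes that carry the high-affinity receptor for immunoglobulin E. The receptor has an IgE-binding alpha chain, encoded by Fcer1a, a signal-amplifying beta chain, encoded by Ms4a2, and a gamma chain, encoded by Fcer1g, which other Fc receptors share. When antigen crosslinks the receptor, the cells release granules that hold proteases and histamine bound to the proteoglycan serglycin, and they make lipid mediators and cytokines. Basophils mature in the marrow, whereas mast cells leave it as progenitors and mature in tissues. In the mouse, Mcpt8 and Prss34 are the proteases most typical of basophils, while tryptases and chymases such as Tpsb2 and Cma1 are typical of mature mast cells.

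The GATA factors, above all GATA2, act in both lineages, and the promoters of the 6 members that varied together are shown here for that reason, beside that of Gzmb. Of these 6, Mcpt8 held no GATA word. Each line gives the 150 bases before the transcription start, 5′ to 3′ on the strand of the gene, from RefSeq for GRCm38.p6, a patch of the mm10 assembly. The windows are chr3:20242182-20242331 on the minus strand for Cpa3, chr17:25298244-25298393 on the plus strand for Prss34, chr19:11623720-11623869 on the minus strand for Ms4a2, chr16:44943528-44943677 on the plus strand for Cd200r3, chr1:173227230-173227379 on the minus strand for Fcer1a, chr14:56085198-56085347 on the minus strand for Mcpt8 and chr14:56262335-56262484 on the minus strand for Gzmb. Capitals mark the GATA word AGATAA with its variants, the word TGATAA, the word AGATAG and the word TGATAG, as well as the RUNX word TGTGGT. Both strands were searched, so that a word on the other strand shows as its reverse complement. No word overlaps another in these windows, and a match is a description of the letters only.
Cpa3: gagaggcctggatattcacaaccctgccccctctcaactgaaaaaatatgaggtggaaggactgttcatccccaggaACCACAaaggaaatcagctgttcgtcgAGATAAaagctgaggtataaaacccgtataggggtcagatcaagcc
Prss34: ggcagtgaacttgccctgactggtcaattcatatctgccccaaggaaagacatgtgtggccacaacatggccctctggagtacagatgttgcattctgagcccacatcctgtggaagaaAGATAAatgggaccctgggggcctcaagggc
Ms4a2: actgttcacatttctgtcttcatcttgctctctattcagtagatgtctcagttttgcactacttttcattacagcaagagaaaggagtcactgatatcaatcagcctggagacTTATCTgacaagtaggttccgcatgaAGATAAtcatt
Cd200r3: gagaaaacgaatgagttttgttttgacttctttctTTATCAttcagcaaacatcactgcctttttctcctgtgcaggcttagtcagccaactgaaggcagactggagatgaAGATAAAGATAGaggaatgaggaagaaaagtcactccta
Fcer1a: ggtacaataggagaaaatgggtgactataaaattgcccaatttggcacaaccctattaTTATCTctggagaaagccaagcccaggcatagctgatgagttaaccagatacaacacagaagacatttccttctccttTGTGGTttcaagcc
Mcpt8: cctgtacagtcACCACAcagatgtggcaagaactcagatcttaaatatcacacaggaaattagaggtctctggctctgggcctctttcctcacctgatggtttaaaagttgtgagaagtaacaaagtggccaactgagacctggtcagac
Gzmb: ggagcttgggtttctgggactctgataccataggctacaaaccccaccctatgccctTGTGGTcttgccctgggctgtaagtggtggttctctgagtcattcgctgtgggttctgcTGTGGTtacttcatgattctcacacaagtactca

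In the full windows of 300 bases, from 250 before to 50 after a start, a GATA word was found for 7 of the 10 members and a RUNX word for 5. Of the 32841 promoter windows in the table, 29.8% held a GATA word and 16.8% a RUNX word. The GATA word of Cpa3 began 46 bases before the start and that of Prss34 31 bases before it. Ms4a2 had words beginning 37 and 11 bases before the start, on opposite strands, and a further one at 224 bases. Cd200r3 had a pair of abutting words beginning at 39 and 33 bases and a further one at 115 bases. That of Fcer1a began at 92 bases, and Mcpt8 and Gzmb had none in the window. Hdc had one farther away, at 221 bases. Il4 and Srgn each had 2 start sites in the table, and both Il4 windows held a GATA word. The word of the second Il4 window lay after the start, at base 15.

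All 10 members were detected in all 10 libraries, and all 10 passed the filter, so that none was left without a test. Per kilobase of transcript, Srgn was the highest, at 543 ± 73.0 FPKM in CK2i and 419 ± 40.2 FPKM in vehicle libraries. Prss34 followed at 205 ± 69.0 and 302 ± 67.2 FPKM, Mcpt8 at 133 ± 46.4 and 221 ± 58.3 FPKM, and Cpa3 at 39.5 ± 10.3 and 47.7 ± 11.1 FPKM, in CK2i and vehicle. Prss34 and Mcpt8 overlapped between libraries in both groups, although Prss34 was the higher one within all 10 libraries. Hdc stood at 35.2 ± 6.15 FPKM in CK2i and 23.4 ± 4.36 FPKM in vehicle. Fcer1a stood at 17.6 ± 6.87 FPKM in CK2i and 25.1 ± 4.53 FPKM in vehicle, so that Hdc lay above Fcer1a in all CK2i libraries, while the 2 genes overlapped in vehicle libraries. Ms4a2, Cd200r3, Gzmb and Il4 came last, with Il4 at 0.830 ± 0.283 FPKM in CK2i and 1.22 ± 0.258 FPKM in vehicle. Of these, Gzmb and Il4 overlapped in both groups.

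CK2i against vehicle was tested with edgeR's quasi-likelihood test over 14346 genes, and 3 of the 10 members passed an adjusted p of 0.05. Hdc and Srgn rose and Gzmb fell. Over all genes tested 13.2% passed, 6.43% upward and 6.76% downward. The other 7 members had log2 differences below 0, from -0.73 to -0.28, and none of them passed. The median log2 difference was -0.49 over the members and -0.001 over all genes tested. No member had groups that did not overlap, against 10.9% of all genes. In bulk libraries, fewer cells of a type and less RNA per cell cannot be told apart.

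**Figure D1:**
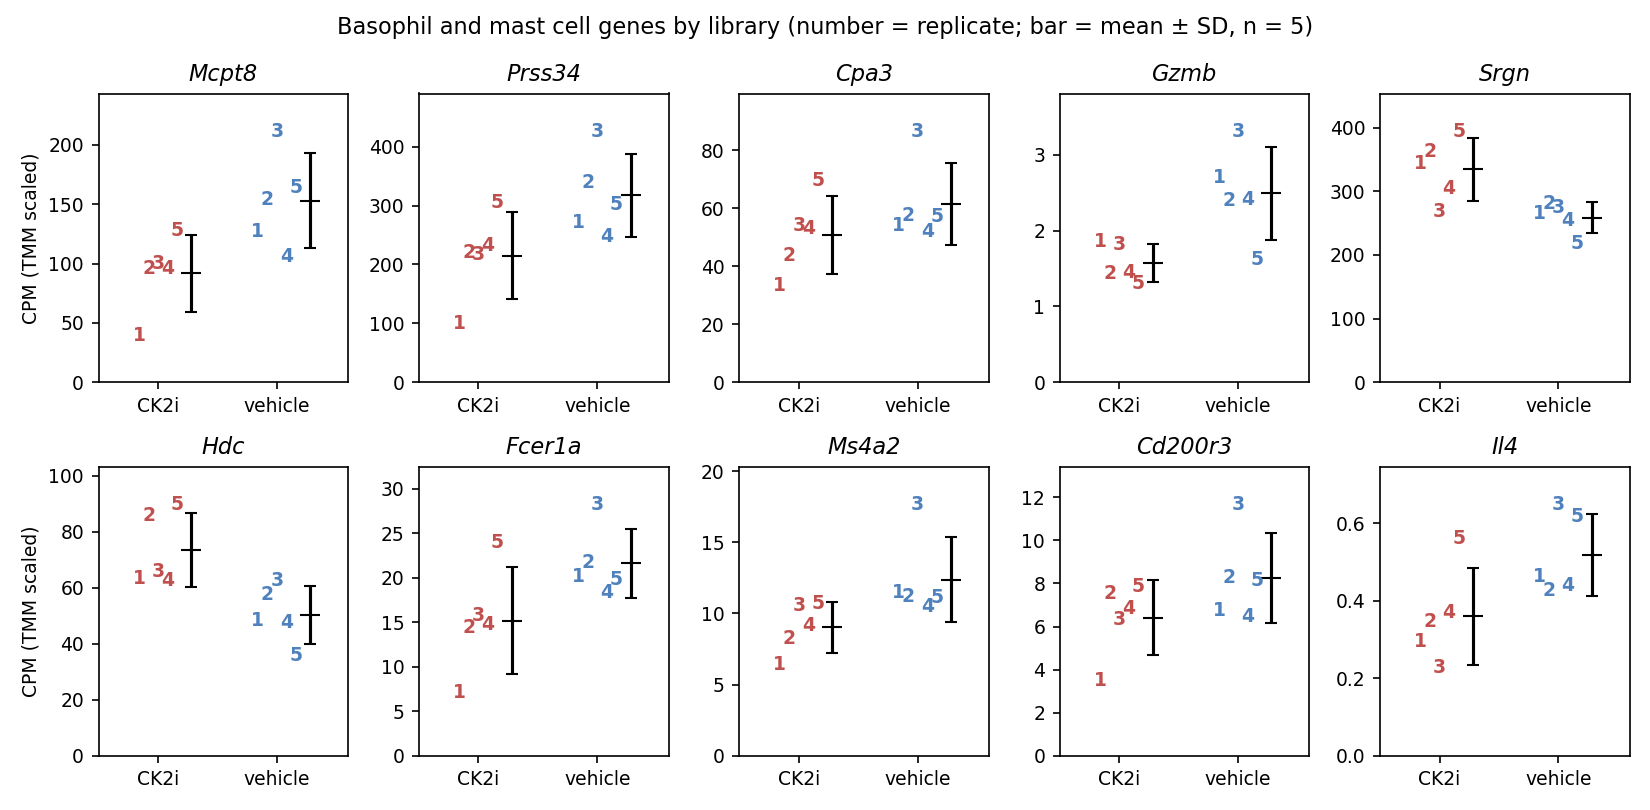
CPM with TMM scaling of each member in the CK2i (left) and vehicle (right) libraries, with digits for the replicate and bars for the mean ± SD (n = 5 each). Hdc and Srgn are higher in 4 of 5 CK2i libraries than in all vehicle libraries, while CK2i library 1 is the lowest for Mcpt8, Prss34, Fcer1a, Ms4a2, Cd200r3 and Cpa3.

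Among the granule proteases, Mcpt8, which encodes a basophil serine protease of the granzyme family (ENSMUSG00000022157; GRCm38 chromosome 14, 56082166 to 56085273, minus strand), held 39.3, 95.8, 100.3, 95.7 and 128 CPM in CK2i libraries 1 to 5, against 127, 154, 212, 106 and 164 CPM in vehicle libraries 1 to 5. Of the CK2i libraries 4 lay below all vehicle libraries, and CK2i 5 lay inside their range. Its log2 difference was -0.73 ± 0.27 (SE, edgeR adjusted p = 0.0853), which missed the threshold. Prss34, a tryptase-like protease of basophils (ENSMUSG00000056399; chromosome 17, 25298394 to 25300165, plus strand), held 100.3, 221, 217, 232 and 304 CPM in CK2i libraries 1 to 5, against 271, 340, 426, 247 and 302 CPM in vehicle libraries 1 to 5. CK2i 1 was the lowest and CK2i 5 again lay among the vehicle libraries. The difference was -0.56 ± 0.24 (adjusted p = 0.131).

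Cpa3 encodes carboxypeptidase A3, a metalloprotease stored with heparin-bound proteases in mast cell granules and also found in basophils and their progenitors (ENSMUSG00000001865; chromosome 3, 20215620 to 20242181, minus strand). It held 33.4, 43.6, 54.2, 52.8 and 69.6 CPM in CK2i libraries 1 to 5, against 54.1, 57.6, 86.6, 51.9 and 57.2 CPM in vehicle libraries 1 to 5. The groups overlapped widely, with 2 CK2i libraries below all vehicle libraries, and the log2 difference of -0.28 ± 0.19 was the smallest of the members (adjusted p = 0.322).

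Gzmb, granzyme B, a death-inducing protease of cytotoxic lymphocytes that mouse mast cells and basophil progenitors can also express, fell in CK2i (ENSMUSG00000015437; chromosome 14, 56258838 to 56262260, minus strand). It held 1.86, 1.43, 1.81, 1.45 and 1.3 CPM in CK2i libraries 1 to 5, against 2.71, 2.40, 3.31, 2.42 and 1.62 CPM in vehicle libraries 1 to 5, from 44 to 133 counts. Vehicle 5 lay inside the CK2i range, and the other vehicle libraries lay above it. The log2 difference was -0.66 ± 0.19 (adjusted p = 0.0446). The call was lost without CK2i 2 (adjusted p = 0.0977), CK2i 4 (0.0672), CK2i 5 (0.103), vehicle 1 (0.0941), vehicle 2 (0.0617), vehicle 3 (0.0872) or vehicle 4 (0.0801), with log2 differences from -0.79 to -0.54 over the 10 fits that left out 1 library. It was also lost with limma on log2(FPKM + 1), at -0.39 (adjusted p = 0.0564).

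Gzmb and Mcpt8 belong to 1 cluster of protease genes on chromosome 14 and lie 173.6 kb apart. Of the 7 protein-coding genes annotated between them, Ctsg, cathepsin G of neutrophil and mast cell granules, had 10913 to 31428 counts per library, and the other 6, all granzyme genes, had at most 2. Ctsg rose in CK2i, to 673 ± 116 CPM against 412 ± 89.9 CPM in vehicle (log2 0.71 ± 0.16, adjusted p = 0.0249). The ratio of Gzmb to Mcpt8 counts within a library, which needs no scaling between libraries, was 0.0473, 0.0149, 0.0181, 0.0152 and 0.0101 in CK2i libraries 1 to 5, against 0.0213, 0.0155, 0.0157, 0.0227 and 0.00986 in vehicle libraries 1 to 5. The groups overlapped, and the mean log2 ratio differed by 0.15 (exact permutation test over all 252 splits, two-sided, p = 0.810, adjusted p = 0.810 over the 2 ratios tested). CK2i 1 was the highest, and without it the difference was -0.19. Without vehicle 5 it was -0.03.

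**Figure D2:**
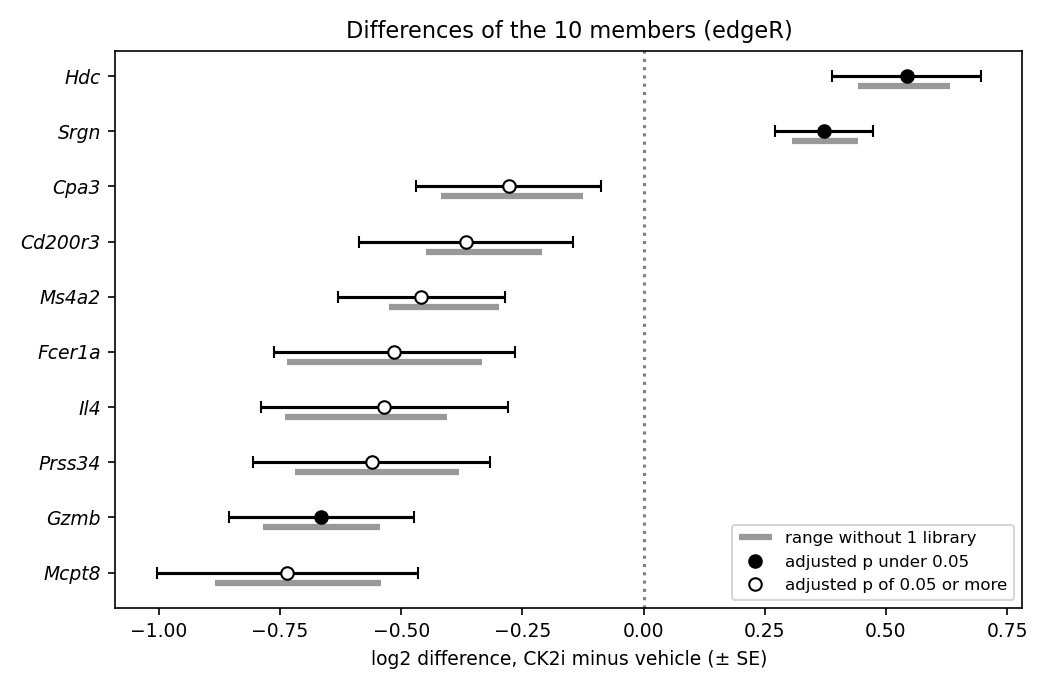
Log2 difference between CK2i and vehicle for each member (points; bars, ± SE by edgeR), with filled points for adjusted p under 0.05 and grey lines for the range over the 10 fits that left out 1 library. Hdc and Srgn lie to the right of 0 and the other 8 members to the left, with Gzmb the filled point among them.

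Srgn encodes serglycin, the proteoglycan core that binds proteases and amines in the granules of many blood cells and is not restricted to basophils and mast cells (ENSMUSG00000020077; chromosome 10, 62493833 to 62527451, minus strand). It held 344, 362, 269, 304 and 395 CPM in CK2i libraries 1 to 5, against 265, 280.3, 275, 253 and 218 CPM in vehicle libraries 1 to 5. CK2i 3 lay within the vehicle range, and the other 4 exceeded it. Srgn rose by 0.37 ± 0.10 log2 (adjusted p = 0.0399). The call was lost without CK2i 1 (adjusted p = 0.0577), CK2i 2 (0.0885), CK2i 5 (0.0909), vehicle 1 (0.0795), vehicle 3 (0.0623), vehicle 4 (0.0806) or vehicle 5 (0.0863), with log2 differences of 0.31 to 0.44 over those 10 fits.

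Hdc encodes histidine decarboxylase, the enzyme that makes histamine, in basophils and mast cells and also in immature myeloid cells of mouse marrow (ENSMUSG00000027360; chromosome 2, 126593667 to 126619299, minus strand). It held 63.3, 85.7, 65.7, 62.5 and 89.6 CPM in CK2i libraries 1 to 5, against 48.2, 57.6, 62.6, 47.6 and 35.8 CPM in vehicle libraries 1 to 5. CK2i 4 and vehicle 3 were close to each other, and the other 4 CK2i libraries exceeded the vehicle range, CK2i 1 by less than 1 CPM. Its call, at 0.54 ± 0.15 log2 and adjusted p = 0.0431, was lost without CK2i 2 (adjusted p = 0.0991), CK2i 5 (0.101), vehicle 1 (0.0933), vehicle 4 (0.0882) or vehicle 5 (0.0809).

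Histamine, made by the enzyme of Hdc, is stored with carboxypeptidase A3 in mast cell granules. Markers of mature mast cells were near 0 here, as given below. The ratio of Hdc to Cpa3 separated the groups. The part of other cells that express Hdc in this ratio was not tested. The separation was not particular to this pair. FPKM of Hdc over Prss34 and of Srgn over Prss34 also separated the groups. Counts of Hdc over those of Cpa3 were 1.89, 1.97, 1.21, 1.18 and 1.29 in CK2i libraries 1 to 5, against 0.890, 1.00, 0.723, 0.917 and 0.626 in vehicle libraries 1 to 5. The groups did not overlap. The mean log2 ratio was 0.56 ± 0.36 in CK2i and -0.29 ± 0.28 in vehicle (SD, n = 5 each), a difference of 0.84 (exact permutation test over the 252 splits, two-sided, p = 0.00794, which is the smallest p they can give, adjusted p = 0.0159 over the 2 ratios). In the 10 fits without 1 library the difference was 0.74 to 0.92. The adjusted p stayed the same, as groups that do not overlap give the smallest p whichever library is left out.

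**Figure D3:**
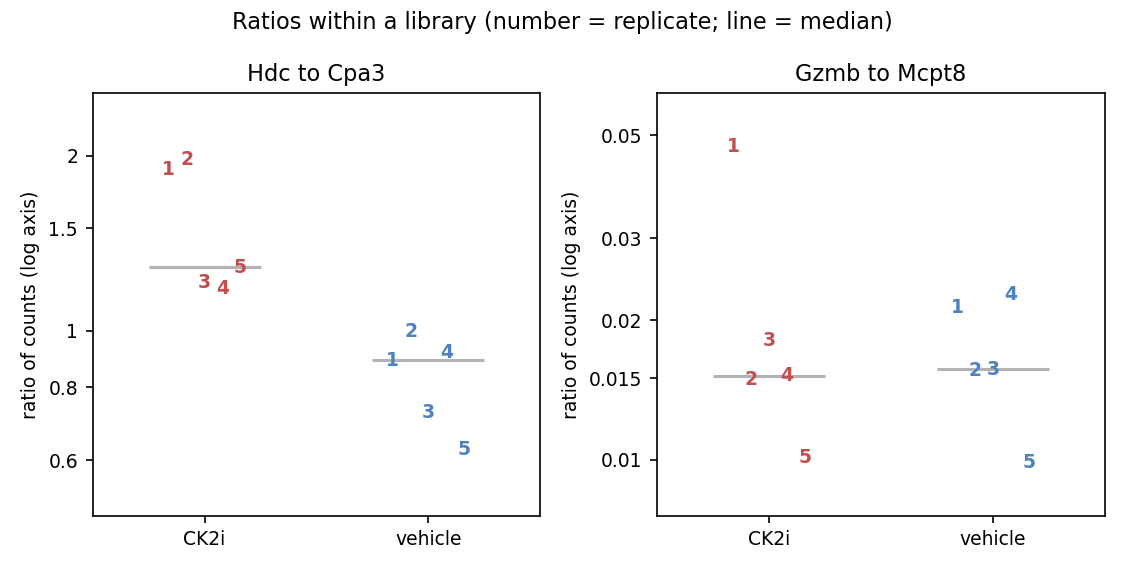
Ratio of counts within a library (log axis) for Hdc to Cpa3 and for Gzmb to Mcpt8, CK2i left and vehicle right, with digits for the replicate and grey lines for the median. The Hdc to Cpa3 ratio is at 1.18 or more in CK2i and at 1.00 or less in vehicle libraries, and the Gzmb to Mcpt8 ratios overlap, with CK2i 1 the highest at 0.0473.

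Markers of neutrophil promyelocytes rose, as did Hdc and Srgn. All 8 primary granule markers tested passed upward, among them Mpo and Elane. Their summed level was 6650, 8347, 5157, 5982 and 7929 CPM in CK2i libraries 1 to 5, against 3932, 5606, 4806, 4360 and 2750 CPM in vehicle libraries 1 to 5. CK2i 2 and CK2i 5 were the highest for this sum and for Hdc and Srgn, and vehicle 5 was the lowest for all of them. The same libraries were the extremes of the first principal component of all genes, at -43.26, -43.68 and 29.62. The match need therefore not be particular to these markers. Vehicle 2 was the highest vehicle library for the sum and Srgn, but vehicle 3 for Hdc. CK2i 3 was the lowest CK2i library for the sum and Srgn, but CK2i 4 for Hdc. The part of neutrophil promyelocytes in the rises of Hdc and Srgn was not tested.

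Of the chains of the IgE receptor, the alpha and beta chains were lower on average in CK2i without passing edgeR's test. Fcer1a (ENSMUSG00000005339; chromosome 1, 173221284 to 173227214, minus strand) held 7.07, 14.4, 15.7, 14.8 and 23.9 CPM in CK2i libraries 1 to 5, against 20.2, 21.8, 28.2, 18.3 and 19.8 CPM in vehicle libraries 1 to 5. Its range over the CK2i libraries was 3.39-fold, the widest of the members, and CK2i 5 exceeded 4 of the 5 vehicle libraries. The log2 difference was -0.51 ± 0.25 (adjusted p = 0.166). Ms4a2 (ENSMUSG00000024680; chromosome 19, 11615523 to 11623719, minus strand) held 6.40, 8.26, 10.6, 9.17 and 10.7 CPM in CK2i libraries 1 to 5, against 11.5, 11.2, 17.6, 10.5 and 11.1 CPM in vehicle libraries 1 to 5. Vehicle 3 stood well above the rest, and the difference was -0.46 ± 0.17 (adjusted p = 0.0898). Ms4a2 passed with DESeq2 (adjusted p = 0.049). Fcer1g, the shared gamma chain, stood at 35.3 ± 4.93 CPM in CK2i and 32.6 ± 3.37 CPM in vehicle (log2 0.11 ± 0.10, adjusted p = 0.441), and its sign turned with 1 surrogate variable (-0.07) and without CK2i 2 and 5 (-0.02).

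Cd200r3, an activating member of the CD200 receptor family on mouse basophils and mast cells (ENSMUSG00000036172; chromosome 16, 44943678 to 44981380, plus strand), held 3.47, 7.54, 6.32, 6.82 and 7.87 CPM in CK2i libraries 1 to 5, against 6.73, 8.28, 11.7, 6.47 and 8.14 CPM in vehicle libraries 1 to 5. CK2i 1 was low, CK2i 3 was just under the vehicle range and the others were inside it (log2 -0.37 ± 0.22, adjusted p = 0.260). Its relatives in the same cluster were scarce, with at most 6 counts per library for Cd200r2 and 24 to 39 for Cd200r4. Il4, the cytokine of type 2 immunity that basophils can release, had 11, 14, 9, 14 and 19 counts in CK2i libraries 1 to 5, against 20, 16, 26, 18 and 24 counts in vehicle libraries 1 to 5 (ENSMUSG00000000869; chromosome 11, 53602982 to 53618669, minus strand). CK2i 5 overlapped the vehicle libraries, and the difference of -0.53 ± 0.25 log2 did not pass (adjusted p = 0.16). Il13, its neighbour in the type 2 cytokine cluster, had at most 2 counts in any library.

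Of the members, 6 rose and fell together from library to library, a grouping made after their values were seen. After the group mean was subtracted, log2 CPM of Mcpt8, Prss34, Fcer1a, Ms4a2, Cd200r3 and Cpa3 had Pearson correlations of 0.83 to 0.98 over the 15 pairs, with a median of 0.91, and Spearman values of 0.78 to 0.98. These are descriptions over 10 libraries, with no test. CK2i 1 was the lowest and CK2i 5 the highest CK2i library for all 6, and vehicle 4 the lowest and vehicle 3 the highest vehicle library. Without CK2i 1 and vehicle 3 the median over the pairs was 0.72 and the range -0.03 to 0.91, so that the closeness rests in part on these libraries. Hdc correlated with the 6 at 0.43 to 0.56, Il4 at 0.41 to 0.60, Srgn at 0.03 to 0.22 and Gzmb at -0.23 to 0.24. Hdc and Srgn correlated with each other at 0.81 (Spearman 0.79).

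**Figure D4:**
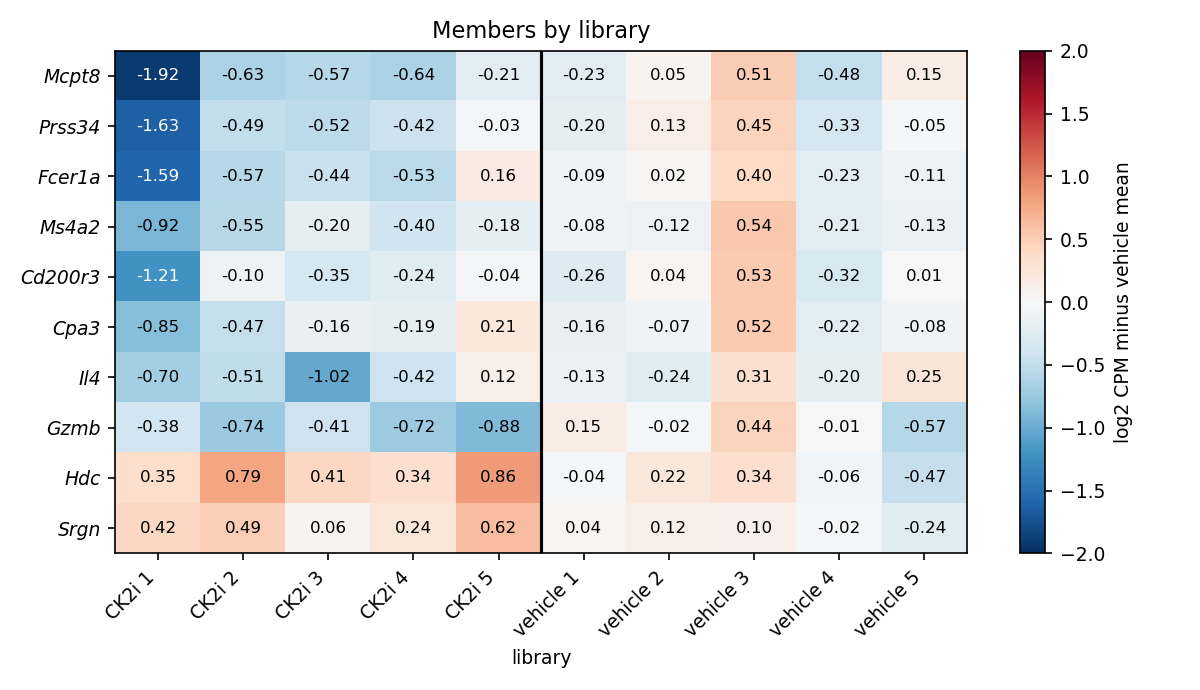
Log2 CPM of each member in each library minus the mean of the vehicle libraries, with CK2i libraries left of the line and vehicle libraries right of it. CK2i 1 is the lowest library for the upper 6 genes, down to -1.92 for Mcpt8, while vehicle 3 is raised for them by 0.40 to 0.54.

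Ratios among these 6, which were grouped for varying together, differed in their spread. FPKM of Fcer1a over that of Prss34 ran from 0.0775 to 0.0960 in CK2i and from 0.0782 to 0.0907 in vehicle libraries, a 1.24-fold range over all 10. For Cd200r3 over Prss34 the range over all libraries was 1.36-fold and for Mcpt8 over Prss34 1.39-fold. It was 1.96-fold for Cpa3 and 1.92-fold for Ms4a2, with the highest ratios in CK2i 1 (0.272 and 0.0739). Ms4a2 over Fcer1a had the widest range among the ratios of the 6 computed, 2.05-fold, with its highest ratio also in CK2i 1 (0.859). Hdc and Srgn over Prss34 had 5.19-fold and 5.42-fold ranges. Their highest ratios, 0.309 and 5.90, again came from CK2i 1, where Prss34 was low, while the CK2i medians were 0.155 and 2.26. The vehicle medians were 0.0816 and 1.42. Neither ratio overlapped between the groups. Hdc over Prss34 was at least 0.136 in CK2i and at most 0.0950 in vehicle. Srgn over Prss34 was at least 2.15 in CK2i and at most 1.77 in vehicle.

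As CK2i 1 is the lowest CK2i library and vehicle 3 the highest vehicle library for these 6 genes, leaving out both must narrow their differences. In that fit, chosen after the data were seen, the log2 difference was -0.40 for Mcpt8 (adjusted p = 0.106), -0.25 for Prss34 (0.202), -0.22 for Fcer1a (0.353), -0.20 for Ms4a2 (0.190), -0.05 for Cd200r3 (0.777) and -0.01 for Cpa3 (0.981). Hdc, at 0.68, Srgn, at 0.38, and Gzmb, at -0.61, missed the threshold (adjusted p = 0.0579, 0.0849 and 0.0846). CK2i 2 and CK2i 5 stood apart from the other libraries on the first principal component of all genes, at -43.26 and -43.68 where the rest lay between -12.48 and 29.62. They were also the highest CK2i libraries for Hdc and Srgn and the lowest for Gzmb, so that leaving out both must narrow these differences. Without these 2 libraries Hdc differed by 0.34 (adjusted p = 0.247), Srgn by 0.24 (0.206) and Gzmb by -0.55 (0.227), while Mcpt8 differed by -0.96 (0.141). Calls over all genes were 175 in this fit and in the fit above, against 1892 in the main test. The lost calls therefore do not single out these genes.

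By a rule that took no account of the group difference, the 8 genes outside the list most like the mean of the members' standardised values were Crip1, Cep120, Ets1, Cflar, Igkv4-53, Cdh1, Clec16a and Zeb2os, among 12030 genes compared. Their Pearson correlations with that mean were 0.91 to 0.95 over the 10 libraries, after the group mean was subtracted, and 0.84 to 0.93 without CK2i 1 and vehicle 3. As the highest of 12030 correlations over only 10 libraries, they are high by selection, and no test was run on them. The mean itself was furthest from 0 in CK2i 1 (-1.23), vehicle 3 (1.21) and CK2i 5 (1.11). Crip1 was the first, at 39.5 ± 2.22 CPM in CK2i and 43.3 ± 3.06 CPM in vehicle. None of the 8 passed edgeR's test between the groups, 1 had an unadjusted p under 0.05 and DESeq2 called none, and Cdh1, which encodes E-cadherin, had a log2 difference of -0.23 ± 0.19 (adjusted p = 0.412).

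Markers of mature mast cells were near 0. All 9 failed the filter on low counts. Tpsab1, Tpsg1 and Mrgprb2 had no count in any library, which allows up to 3 counts, or 0.0879 CPM in the shallowest library. Cma1, the chymase of connective tissue mast cells, had 2, 1, 9, 2 and 3 counts in CK2i libraries 1 to 5, against 4, 0, 10, 3 and 5 in vehicle libraries 1 to 5. Tpsb2, a tryptase, had at most 4 counts. The summed level of the 9 markers was at most 0.378 CPM in CK2i and at most 0.349 CPM in vehicle libraries, where Mcpt8 alone averaged 91.8 ± 32.3 and 153 ± 40.0 CPM.

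Genes of other cells that could contribute to single members were also measured. For Gzmb, none of the 6 tested T and NK cell markers passed, of 17 listed (edgeR; 2 had an unadjusted p under 0.05 and DESeq2 called 1), and the T cell receptor and CD3 genes Trac, Cd3d, Cd3e and Cd3g averaged at most 0.202 CPM in either group. The summed level of the T and NK list was 42.6 to 80.3 CPM in CK2i and 32.4 to 60.1 CPM in vehicle libraries, mostly from Nkg7. The natural killer receptor gene Ncr1 stood at 0.637 CPM in CK2i and 1.03 CPM in vehicle (log2 -0.69, adjusted p = 0.0824), and its part in the Gzmb value was not tested. Of 6 tested plasmacytoid dendritic cell markers Ccr9 fell, and the sum of that list was 89.5 to 122 CPM in CK2i and 86.4 to 105 CPM in vehicle libraries. None of the 10 eosinophil markers passed with edgeR, where 3 had an unadjusted p under 0.05 and DESeq2 called 1, although their summed level ran from 566 to 2636 CPM in CK2i and from 402 to 1288 CPM in vehicle libraries, with a median log2 difference of 0.87 and Prg2, the major basic protein, at 1012 and 500.5 CPM (adjusted p = 0.10).

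Beyond the members, 143 other genes were listed for the work of basophils and mast cells, and 122 of them were tested. Of these, 20 rose and 12 fell, 26.2% of those tested, where 13.2% of all genes passed, and their median log2 difference was 0.09. The lists hold many genes that neutrophils and monocytes also use. Of the 32 calls, 6 were kept in all 10 fits without 1 library, and the larger direction depended on the libraries. Leaving out CK2i 5 gave 1 higher and 5 lower, vehicle 1 gave 2 and 7, CK2i 2 and vehicle 4 each gave 4 and 7, vehicle 5 gave 6 and 6, vehicle 3 gave 10 and 7, and CK2i 3 gave 28 and 23.

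In the granule list, 3 of 8 tested genes rose and 1 fell. Slc18a2, the vesicular transporter that loads histamine and other amines into granules, fell to 18.2, 16.3, 20.5, 15.6 and 16.5 CPM in CK2i libraries 1 to 5, against 24.4, 21.3, 30.3, 23.2 and 24.5 CPM in vehicle libraries 1 to 5 (log2 -0.51 ± 0.10, adjusted p = 0.0184). All CK2i libraries lay below all vehicle libraries, and the call was kept in all 10 fits without 1 library. Megakaryocyte markers were also lower in CK2i, as given below. The part of those cells in the Slc18a2 value was not tested. Cd63, whose granule membrane protein is used as an activation marker of basophils, rose to 44.9 ± 9.63 CPM in CK2i, against 27.9 ± 3.84 CPM in vehicle (adjusted p = 0.0213, 8 of the 10 fits). Activation itself was not tested. All 8 primary granule markers also rose, and the part of neutrophil promyelocytes in the Cd63 rise was not tested. Ndst1, a sulfotransferase of heparan sulfate, rose by 0.41 ± 0.11 (adjusted p = 0.0393, 3 of the 10 fits), and Ctsg, given above, was the third. Ndst2, from the same list, did not pass, at 48.7 ± 3.25 CPM in CK2i and 50.5 ± 3.06 CPM in vehicle (log2 -0.05 ± 0.06, adjusted p = 0.523).

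Of the 25 genes of IgE receptor signalling, 1 rose and 1 fell. Lat, the adaptor that the kinase Syk phosphorylates in mast cells and its relative ZAP-70 in T cells, fell to 30.0 ± 8.21 CPM in CK2i, against 56.7 ± 12.8 CPM in vehicle (log2 -0.92 ± 0.20, adjusted p = 0.0232, 7 of the 10 fits). Lat is also a platelet gene, and 5 of 10 megakaryocyte markers fell with edgeR, with a summed level of 1684 to 3509 CPM in CK2i and 2882 to 4459 CPM in vehicle libraries. All 10 were lower with an unadjusted p under 0.05, and DESeq2 called 8 of the megakaryocyte markers lower. The part of those cells was not tested.

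Transcription factors moved both ways, with 6 of 22 higher and 3 lower. Gata1, which acts in mast cells, basophils, eosinophils and the erythroid and megakaryocytic lineages, fell to 112 ± 14.4 CPM in CK2i, against 155 ± 15.2 CPM in vehicle (log2 -0.47 ± 0.09, adjusted p = 0.0178, all 10 fits). Gata2 stood at 59.0, 54.9, 74.8, 52.7 and 54.3 CPM in CK2i libraries 1 to 5, against 65.9, 68.9, 85.0, 72.4 and 74.7 CPM in vehicle libraries 1 to 5. CK2i 3 alone lay within the vehicle range, and the difference of -0.31 ± 0.10 missed the threshold (adjusted p = 0.0602). Gata2 passed with DESeq2 (adjusted p = 0.0273) and with edgeR without CK2i 3 (0.00983). Stat5a and Stat5b, which carry signals of interleukin-3 and Kit, fell by 0.23 ± 0.04 and 0.16 ± 0.04 (adjusted p = 0.0178 and 0.0258, all 10 fits and 4 of them). Tfec, a relative of MITF, rose by 0.81 ± 0.15 (adjusted p = 0.015, all 10 fits), whereas Mitf itself, a factor that mast cells need, stood at 6.36 ± 1.03 CPM in CK2i and 5.18 ± 0.90 CPM in vehicle (adjusted p = 0.176; its log2 difference of 0.30 became -0.11 with 1 surrogate variable). Cebpa, which favours basophil over mast cell fate in mouse progenitors, rose by 0.38 ± 0.10 (adjusted p = 0.0340, 5 of the 10 fits), as did Cebpb by 0.63 ± 0.14 (0.0224, 6 fits), Spi1, encoding PU.1, by 0.52 ± 0.15 (0.0428, 3 fits), Nfil3 by 0.39 ± 0.11 (0.0436, 3 fits) and Id1 by 0.64 ± 0.15 (0.0258, 5 fits).

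Of 19 cytokine receptor genes, 3 rose and 3 fell. Kit, the stem cell factor receptor on which mast cells depend, fell by 0.26 ± 0.06 (adjusted p = 0.0302, 6 of the 10 fits), and so did Il1rl1, the interleukin-33 receptor, to 49.1 ± 5.79 CPM in CK2i, against 61.1 ± 2.48 CPM in vehicle (adjusted p = 0.0258, 4 fits). Csf2rb, the beta chain shared by receptors for interleukin-3, interleukin-5 and GM-CSF, rose to 88.4 ± 16.4 CPM in CK2i, against 59.1 ± 8.07 CPM in vehicle, with no overlap of the groups (adjusted p = 0.0239, 6 fits). RSEM may share reads between it and its close relative Csf2rb2, which averaged 5.18 and 2.92 CPM in CK2i and vehicle (adjusted p = 0.0797). Csf2ra rose by 0.67 ± 0.19 (adjusted p = 0.0426, 4 fits) and Il6ra by 0.48 ± 0.13 (0.0350, 3 fits). Il3ra, the alpha chain for interleukin-3, the main growth factor of basophils, stood at 11.5 ± 1.08 CPM in CK2i and 9.60 ± 1.18 CPM in vehicle (adjusted p = 0.0909) and was named after its values were seen.

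Surface receptors rose in 5 of 26 tested genes and fell in 1. Fcgr2b, the inhibitory Fc receptor for IgG, rose by 0.65 ± 0.14 (adjusted p = 0.0206, 8 of the 10 fits) and Fcgr3 by 0.74 ± 0.20 (0.0378, 3 fits). Cxcr4, the receptor that holds cells in the marrow, rose by 0.36 ± 0.09 (adjusted p = 0.0347, 5 fits), Cd244a by 0.41 ± 0.11 (0.0414, 1 fit) and Itgam, which encodes CD11b, by 0.86 ± 0.23 (0.0364, 4 fits). Adgre5, which encodes CD97, fell to 56.1 ± 3.74 CPM in CK2i, against 76.3 ± 4.03 CPM in vehicle (log2 -0.44 ± 0.05, adjusted p = 0.00392, all 10 fits). Itga2, the integrin chain CD49b used to sort basophils, stood at 25.0 ± 6.12 CPM in CK2i and 38.1 ± 9.66 CPM in vehicle (adjusted p = 0.0580) and was named after its values were seen. The part of megakaryocytes in the Itga2 value was not tested.

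Among the enzymes of leukotriene synthesis, Alox5, arachidonate 5-lipoxygenase, fell to 15.2, 18.0, 23.2, 24.0 and 24.4 CPM in CK2i libraries 1 to 5, against 38.3, 32.2, 41.2, 29.0 and 39.4 CPM in vehicle libraries 1 to 5 (log2 -0.78 ± 0.14, adjusted p = 0.0148, all 10 fits). The groups did not overlap. Alox5ap, its activating protein, rose by 0.30 ± 0.08 (adjusted p = 0.0333, 5 of the 10 fits), but on the FPKM scale its difference was 0.11 and did not pass (limma on log2(FPKM + 1), adjusted p = 0.658). The other 9 lipid mediator genes did not pass, although 4 of them had an unadjusted p under 0.05 and DESeq2 called 2. Of 11 tested cytokine genes, Ccl9, a chemokine of myeloid cells, rose by 0.46 ± 0.11 (adjusted p = 0.0283, 7 of the 10 fits), Ccl3 fell by 0.43 ± 0.10 (0.0297, 5 fits) and Il6 fell by 1.25 ± 0.27 (0.0224, 7 fits), to 0.721 ± 0.292 CPM in CK2i, against 1.72 ± 0.356 CPM in vehicle.

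**Figure D5:**
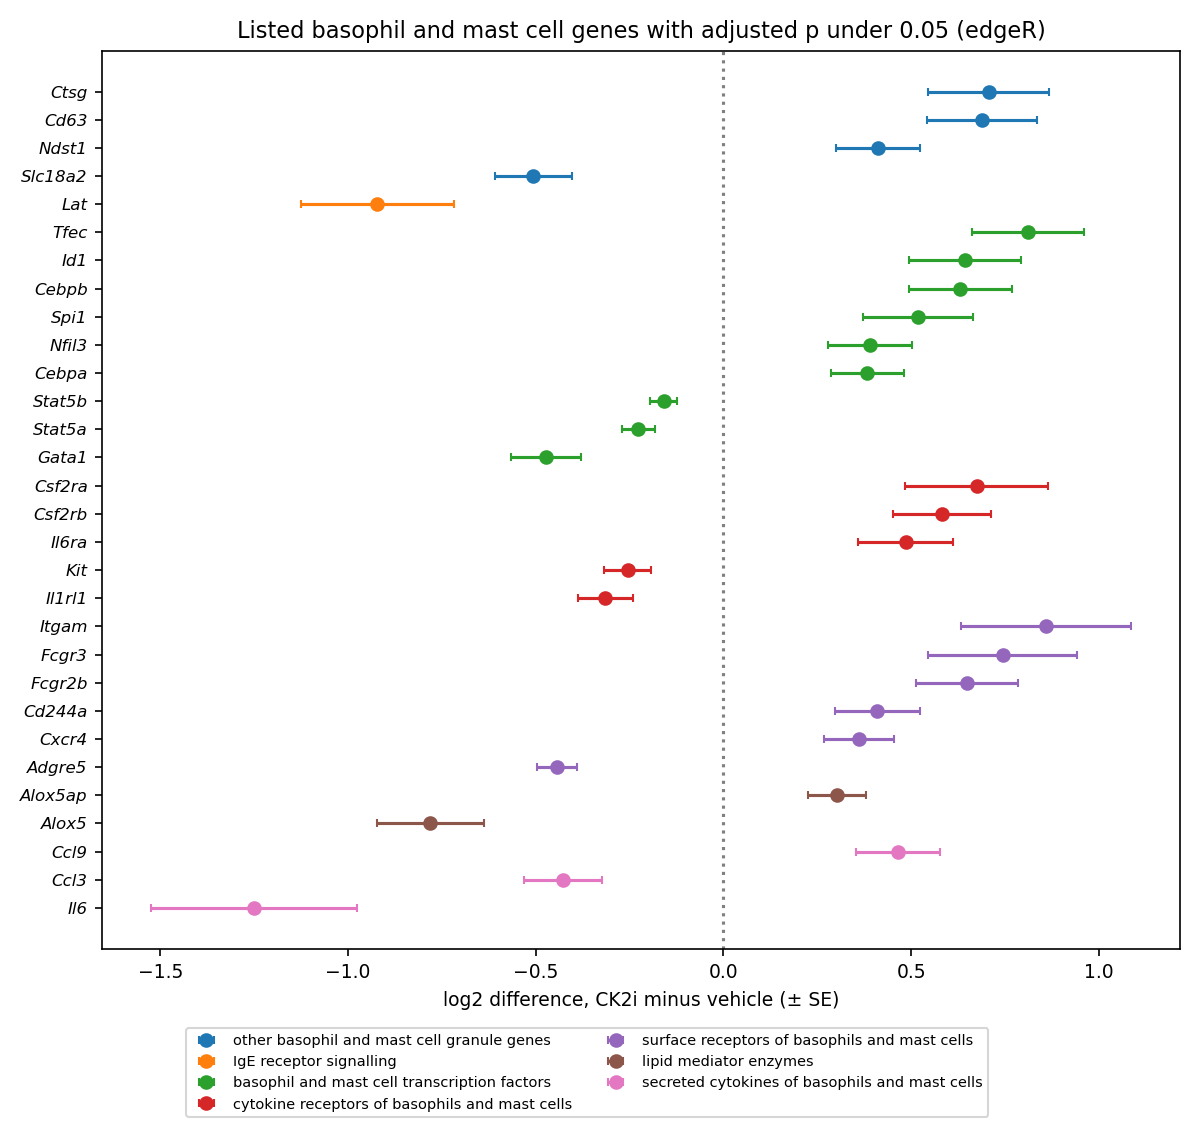
Log2 difference between CK2i and vehicle (± SE, edgeR) for the listed genes outside the members with adjusted p under 0.05 that are reported here, coloured by list. Genes lie on both sides of 0, with Il6 lowest at -1.25 and Itgam highest at 0.86.

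Total counts ranged from 34127674 to 40811539 in CK2i and from 37569160 to 43636152 in vehicle libraries. Over all genes the test called 1892. Leaving out CK2i 3 gave 3198 calls, vehicle 3 gave 758, CK2i 2 gave 617, vehicle 5 gave 546, vehicle 4 gave 528, vehicle 1 gave 458 and CK2i 5 gave 446. It was 175 without CK2i 2 and 5, and also 175 without CK2i 1 and vehicle 3. The remaining marker lists moved as follows. Late neutrophil markers rose in 4 of 11 genes, with a summed level of 39.1 to 115 CPM in CK2i and 27.1 to 64.0 CPM in vehicle libraries. Erythroid markers rose in 6 and fell in 1 of 10, although their summed level was 1263.5 to 1597 CPM in CK2i and 1454 to 1903 CPM in vehicle libraries. Of 12 progenitor markers 2 fell, and of 10 markers of handling stress 2 rose, Hspa1a and Hspa1b.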

How the data were processed

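Total RNA went into a strand-specific Illumina kit that was sequenced in read pairs, per the labels' protocols. Bowtie2, RSEM 1.2.31, DESeq2 and the mm10 build are named, in no stated order, per the submitters' processing notes; which annotation and strand setting served is not given in the sources used here. Per gene, the authors deposited estimated counts, all whole numbers, which were taken as already rounded, and RSEM divides reads between similar genes. The authors also deposited FPKM, which scale counts by transcript length and depth. Symbols and coordinates came from GENCODE M21 (GRCm38), which matched 37570 of 38887 identifiers; 2 empty lines were left out. Overlapping annotations of the members were Mir7007 in Cpa3 and Mir6949 in Mcpt8, each with 0 counts.

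The main test was edgeR 4.0.16 (R 4.3.3) in quasi-likelihood mode, with TMM scaling, filterByExpr (minimum count of 10) and group as the only term, two-sided, with p-values adjusted by Benjamini-Hochberg over all 14346 genes kept. The SE is the log2 difference divided by the square root of F. The average biological coefficient of variation was 14.2%, so the spread between libraries limits all but the lowest genes; limits for a count of 0 cover counting error only. The script was tested on simulated counts. Within a group, no pair of libraries agreed within sampling noise (chi-square per degree of freedom 10.31 to 67.76).

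Named were all members, 8 genes fixed by name (Kit, Gata2, Fcer1g, Il1rl1, Csf2rb, Mitf, Cma1, Tpsb2), listed genes that passed and the 8 most alike; marker genes illustrate lists. Some listed genes that passed are counted but not reported here by name. Members, the 7 lists of other genes and the 10 marker lists were chosen with earlier results of these data known, so none is independent support. Alternatives were DESeq2 1.42.0 and its size factors, no filter, limma 3.58.1 on log2(FPKM + 1) or log2(FPKM + 0.1), 1 surrogate variable (sva 3.50.0), a replicate block and left-out libraries.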

Additional observations from a re-analysis of the deposited data

Results flagged for a closer look

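Of 24 groups of 5 values (each member's CPM and both ratios, in CK2i and in vehicle), 3 had a library whose gap to its nearest neighbour was over 0.71 of the group's range; chance flags about 1 group in 20. Vehicle 3 stood above the other vehicle libraries for Cpa3, at 86.6 CPM where the others lay between 51.9 and 57.6 CPM. The same library stood out for Ms4a2, at 17.6 CPM where the others lay between 10.5 and 11.5 CPM. The Gzmb to Mcpt8 ratio of CK2i 1 was 0.0473, and the other CK2i libraries lay between 0.0101 and 0.0181; Mcpt8 was at 39.3 CPM there, its lowest value, and Gzmb at 1.86 CPM.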

How the results depend on the processing

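None of the 10 members changed direction under any of the 20 alternatives to the edgeR test. Of the 200 values 163 kept their side of the threshold, 36 calls of Hdc, Srgn and Gzmb were lost, and Ms4a2 passed with DESeq2 (adjusted p = 0.0490). The call of Hdc was kept under 10 of the 20 alternatives, that of Srgn under 8 and that of Gzmb under 6. The 3 calls became 0 with limma on log2(FPKM + 1) and no filter, with 1 surrogate variable (correlation with the group 0.741), without CK2i 2 and 5 and without CK2i 1 and vehicle 3, and ran from 0 to 3 without 1 library. Calls among the other listed genes, 32, became 49 with DESeq2, 4 with limma and no filter, 0 with the surrogate variable, 1 without CK2i 2 and 5, 1 without CK2i 1 and vehicle 3, and 6 to 51 without 1 library. Over all genes the 1892 calls became 3142 with DESeq2, 1197 with limma on log2(FPKM + 1), 1223 with a pseudocount of 0.1, 295 with limma and no filter, 15 with the surrogate variable, 175 without CK2i 2 and 5, 175 without CK2i 1 and vehicle 3, and 446 to 3198 without 1 library. The cause was not tested. Directions turned for Fcer1g, to -0.069 with the surrogate variable and -0.015 without CK2i 2 and 5, and for Mitf, to -0.11 with the surrogate variable.

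The Hdc to Cpa3 difference was 0.74 to 0.92 without 1 library and 0.71 without CK2i 1 and vehicle 3 (adjusted p = 0.0571, exact permutation test, where the smallest unadjusted p is 0.0286). That of Gzmb to Mcpt8 ran from -0.19 to 0.36 without 1 library, was -0.03 without vehicle 5, and was -0.21 without CK2i 1 and vehicle 3. With the replicate number as a block, 1139 genes passed in all and 1 member, Gzmb (adjusted p = 0.0417), with Hdc at 0.0712 and Srgn at 0.0779, and among the listed genes 8 were higher and 18 lower; the paired exact permutation test of the Hdc to Cpa3 ratio gave 0.84 (adjusted p = 0.125), where 5 pairs cannot go below an unadjusted p of 0.0625. Same-numbered libraries had correlations of -0.159 to 0.228 in their deviations, and 2 of 5 matched their own number best, so the numbers were not taken as pairs.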
